A study of Mus musculus with 5 samples.

Results

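The genes described here are those of the 4 ID (inhibitor of DNA binding) proteins and of 6 components of bone morphogenetic protein (BMP) signalling: Id1, Id2, Id3, Id4, the ligand genes Bmp4 and Bmp7, the receptor genes Bmpr1a and Bmpr2, and the inhibitory SMAD genes Smad6 and Smad7. They were taken by gene symbol, and all 10 were found among the 29495 genes of the count tables. The cells were mouse glioma cells of genotype p53-/-;NF1-/-;tdTomato+/-, derived from a tumor model of mixed CD-1 and C57BL/6 background and cultured with olfactory bulb (OB) neurons from C57BL/6 pups 2 to 3 days old. They were sorted from the neurons by their tdTomato fluorescence, and polyadenylated RNA was sequenced. The 2 control libraries (control replicates 1 and 2) came from co-cultured cells without added IGF-1 (insulin-like growth factor 1), and 3 libraries (IGF-1 replicates 3, 4 and 5) from co-cultured cells given 20 ng/mL IGF-1 overnight. Both groups carry the same genotype and the same co-culture. The neurons had been plated in medium with 10% serum and 0.25 mg/mL insulin, followed by 5% serum, so neither group was free of serum factors, and serum is known to carry BMP activity. Whether each library had its own culture or animal, or more than 1 tumor was used, the labels do not state, so p-values rest on the spread among these 5 libraries alone, and that spread may be technical.

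BMP ligands bind pairs of type I and type II serine/threonine kinase receptors, which phosphorylate SMAD1, SMAD5 and SMAD9; these join SMAD4 and act on genes in the nucleus. The ID genes are classical targets of this pathway, and their products, which lack a DNA-binding region, hold E proteins and related basic helix-loop-helix (bHLH) factors away from DNA. In the oligodendrocyte lineage BMP is known to restrain differentiation and to favour an astrocytic fate, and ID2 and ID4 are known to bind OLIG1 and OLIG2.

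Total counts were 16944315 to 20144181 per library. IGF-1 replicate 5 stood apart: over genes of at least 10 CPM (counts per library total scaled with TMM factors), the SD of its log2 difference was 0.22 from each of the other IGF-1 libraries, against 0.11 between those libraries and 0.11 between the controls. Each result below is therefore also given without it where that changes a call or a direction. All 6 markers of oligodendrocyte progenitor-type glioma cells were present, with summed levels of 3577 to 3701 CPM in the controls and 3757 to 4237 in the IGF-1 libraries. Of the neuronal list, 8 of 9 markers were found. They summed to 7.79 to 8.03 CPM in the controls and 8.54 to 14.8 in the IGF-1 libraries, highest in replicate 5. Syt1 was the largest part of each sum, at 11.35 CPM in replicate 5 and 4.67 to 5.56 CPM in the other libraries. Snap25 and Gad2 were also highest in replicate 5, but Gad1 was not, and Slc17a6 and Slc32a1 had 0 counts there. Rbfox3, the neuronal nuclear marker, had 0 to 1 counts per library. Microglial markers summed to at most 1.10 CPM, endothelial ones to at most 1.59, and those of fibroblasts and pericytes to at most 14.8. Astrocyte markers, which glioma cells can share, summed to 270 to 271 CPM in the controls and 245 to 269 in the IGF-1 libraries, and 0 of the 6 were called. Among markers of olfactory ensheathing cells, which the olfactory bulb also holds, Npy had 0 to 1 counts per library, Frzb was at 1.22 to 1.42 CPM, Ngfr at 4.62 to 6.73 CPM and S100b, which other glial cells share, at 54.9 to 66.3 CPM, and none of these was called. The part of these cells in the results was not tested. In bulk RNA, fewer cells expressing a gene and less of its RNA per cell cannot be told apart.

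Promoters of 7 of the 10 members were matched by symbol in RefSeq sequences of build GRCm38.p6, which run from 250 bases before to 50 bases after a gene's start; the deposited counts were made on GRCm39, so these coordinates do not apply to them. No promoter was matched for Id1, Bmp7 and Smad7. The promoters of Id2 and Id3 are shown because these ID genes had the groups separated in opposite directions (below). Capitals mark GGCGCC, a GC-rich motif that SMAD1 and SMAD5 are known to bind, and GTCT or its reverse complement AGAC, the half-site bound by SMAD4. Id2 lies on the minus strand (chr12:25096043-25096342) and Id3 on the plus strand (chr4:136143572-136143871), and both are printed 5′ to 3′ in the direction of the gene.
Id2: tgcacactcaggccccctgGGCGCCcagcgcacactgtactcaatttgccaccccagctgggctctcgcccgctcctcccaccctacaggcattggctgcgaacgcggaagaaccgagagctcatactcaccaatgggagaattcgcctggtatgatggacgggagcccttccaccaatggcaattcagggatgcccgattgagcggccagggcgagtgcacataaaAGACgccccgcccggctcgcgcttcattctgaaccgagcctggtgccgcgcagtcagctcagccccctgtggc
Id3: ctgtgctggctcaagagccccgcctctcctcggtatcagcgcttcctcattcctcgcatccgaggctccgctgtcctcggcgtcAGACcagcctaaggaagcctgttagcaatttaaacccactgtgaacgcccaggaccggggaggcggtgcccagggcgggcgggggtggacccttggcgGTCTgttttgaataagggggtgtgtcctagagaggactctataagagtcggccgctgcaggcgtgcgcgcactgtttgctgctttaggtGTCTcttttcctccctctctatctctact

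The Id2 window held 1 GGCGCC, starting 231 bases before the gene's start, and 1 half-site. The Id3 window held 0 GGCGCC and 3 half-sites. Of the other matched members, Id4, Bmpr1a and Bmpr2 held 1 GGCGCC each, and Bmp4 and Smad6 held 0. Of the 32851 promoter windows in the table, 11.9% held GGCGCC and 88.0% a half-site on either strand, so the half-site sets no promoter apart. The E-box CANNTG, the bHLH motif, was found once in Id2 and in 72.3% of all windows. These are letter matches in a short window, and no binding was measured.

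None of the 8 members that could be tested passed an adjusted p of 0.05 with IGF-1, using the quasi-likelihood test of edgeR and Benjamini-Hochberg adjustment over 15919 genes. Among all genes tested, 0.685% were called higher and 0.339% lower. By unadjusted p below 0.05, 2 members were higher (Id2 and Bmp7) and 1 lower (Id3), against 7.10% and 5.57% of all genes. DESeq2 called 0 members, against 1.39% higher and 0.581% lower of all genes, and gave Smad6, Id4 and Bmp4 no adjusted p. Of the 8, Id2, Bmp7 and Id3 were also those whose IGF-1 libraries did not overlap the controls in CPM. These were 2 higher and 1 lower, against 16.2% and 16.9% of all tested genes. The median log2 fold change of the 8 was 0.024, beside -0.0076 over all genes. Without replicate 5 the median of the 7 members then tested turned to -0.047, beside -0.0057 over all genes. Id4 and Bmp4 did not pass the filter on low counts and were not tested; in CPM their IGF-1 libraries also lay below both controls.

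Without IGF-1 replicate 5 the call changed for 2 members: Bmp7 was called higher and Id3 lower, among 5.49% of genes called higher and 3.65% called lower in that comparison. The same 2 were called when low counts were not filtered (1.31% of genes higher and 0.749% lower) and by limma-voom with sample quality weights (3.02% and 2.08%), which gave replicate 5 a weight of 0.292 and the other libraries 1.34 to 1.39.

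**Figure D1:**
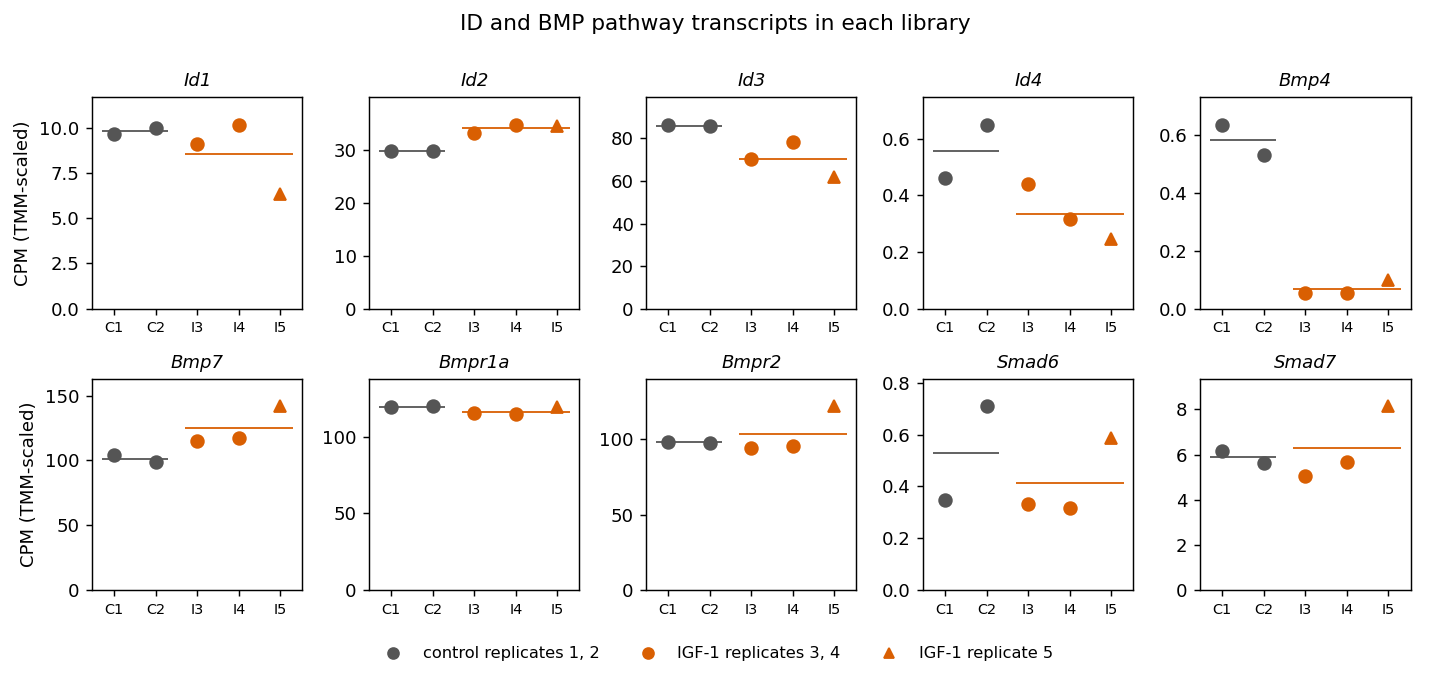
TMM-scaled CPM of each member (vertical axes, each from 0) in control libraries C1 and C2 and IGF-1 libraries I3, I4 and I5, with horizontal lines at the group means. Id2 and Bmp7 lie above and Id3 below the controls in all 3 IGF-1 libraries. Of all tested genes, 16.2% lie above and 16.9% below in the same way. Id4 and Bmp4, too low in counts to be tested, also lie below. The triangle of replicate 5 lies apart for Id1, Bmpr2 and Smad7.

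Among the ID genes, Id3, whose product pairs with E proteins, was the most abundant. It was at 86.5 and 85.7 CPM in control replicates 1 and 2, and at 70.2, 78.4 and 62.0 CPM in IGF-1 replicates 3, 4 and 5. All IGF-1 libraries lay below both controls, with replicate 5 the lowest. The means were 86.1 ± 0.536 CPM (SD, n = 2) and 70.2 ± 8.23 CPM (SD, n = 3), a log2 fold change of -0.30 (SE 0.09, edgeR adjusted p = 0.211). Without replicate 5 the difference was smaller, -0.21 (SE 0.06), but the spread was smaller too and Id3 was called lower (edgeR adjusted p = 0.00839).

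Id2, an ID gene with known links to oligodendrocyte lineage factors, was at 29.78 and 29.80 CPM in the controls and at 33.1, 34.7 and 34.4 CPM in IGF-1 replicates 3, 4 and 5. The 3 IGF-1 libraries lay close together and above both controls, and replicate 5 did not stand out. The log2 fold change was 0.19 (SE 0.08, edgeR adjusted p = 0.366) and 0.19 without replicate 5 (edgeR adjusted p = 0.176), so Id2 was not called in either. As a description chosen after the values were seen, the ratio of Id2 to Id3 CPM was 0.345 and 0.348 in the controls and 0.472, 0.442 and 0.554 in IGF-1 replicates 3, 4 and 5. Because Id2 lay above and Id3 below the controls in every IGF-1 library, this ratio had to separate the groups.

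Id1, a classical early target of BMP, was at 9.64 and 9.97 CPM in the controls and at 9.09, 10.2 and 6.31 CPM with IGF-1. The groups overlapped, and replicate 5 alone was low, at -0.64 on the log2 scale from the control mean against -0.11 and 0.052 for replicates 3 and 4. The fitted log2 fold change was -0.21 (SE 0.19, edgeR adjusted p = 0.696) with all libraries and -0.026 without replicate 5.

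Id4, the ID gene with the lowest level here, had 8 and 11 counts in the controls and 8, 6 and 5 in the IGF-1 libraries. In CPM these were 0.462 and 0.649 against 0.441, 0.318 and 0.245, so the groups did not overlap on that scale, by a margin of less than 1 count. Pooled over libraries, the ratio of IGF-1 to control CPM was 0.596, with an exact 95% binomial interval of 0.299 to 1.19 that covers counting error only. At this depth no difference was detectable. GENCODE annotates 2 genes on the opposite strand that share exonic bases with Id4, and the strand setting of the counting is not known here, so its few reads could include theirs.

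**Figure D2:**
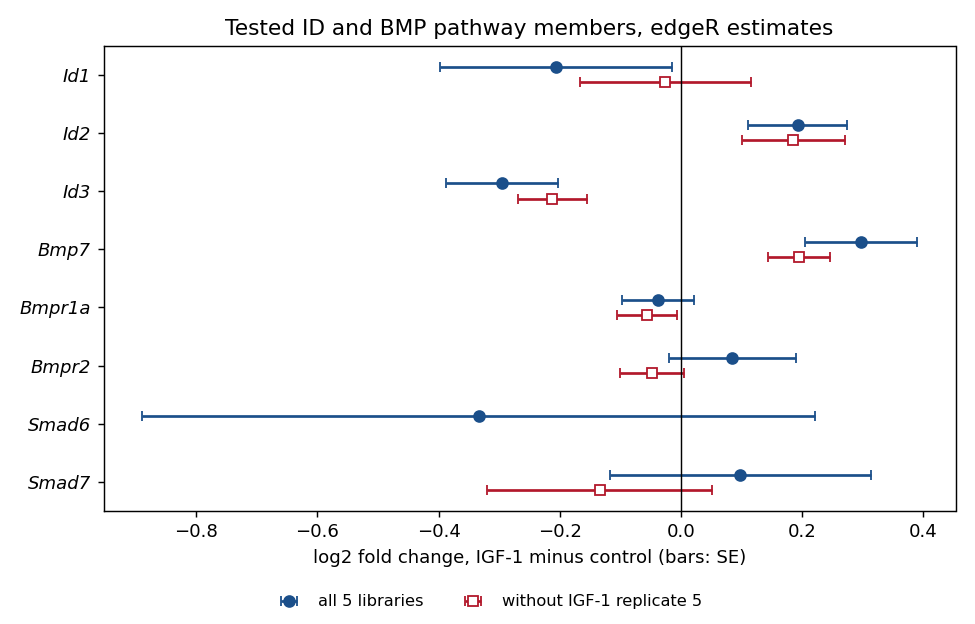
Estimated log2 fold change of each tested member (horizontal axis, IGF-1 minus control, bars show the SE) with all 5 libraries (filled circles) and without IGF-1 replicate 5 (open squares). Id3 and Bmp7 are nearer 0 but with shorter bars without replicate 5, Bmpr2 and Smad7 change sign, and Smad6 was tested with all libraries only.

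Of the ligand genes, Bmp7, which signals through both BMP and activin type II receptors, was the abundant one. It was at 103.9 and 98.96 CPM in the controls and at 114.7, 117.6 and 141.6 CPM in IGF-1 replicates 3, 4 and 5. Every IGF-1 library lay above both controls and replicate 5 was the highest. The log2 fold change was 0.30 (SE 0.09, edgeR adjusted p = 0.206), from means of 101.4 ± 3.51 CPM (SD, n = 2) and 124.7 ± 14.7 CPM (SD, n = 3). Without replicate 5 it was 0.20 (SE 0.05), and Bmp7 was called higher (edgeR adjusted p = 0.00556).

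Bmp4, the ligand best known for directing neural progenitors to astrocytes, was barely detected. It had 11 and 9 counts in the controls and 1, 1 and 2 counts in IGF-1 replicates 3, 4 and 5. No IGF-1 library reached the controls, but too few libraries reached the minimum count for the gene to pass the filter. Pooled over libraries, 20 control and 4 IGF-1 counts gave a ratio of IGF-1 to control CPM of 0.119 (exact 95% binomial interval 0.0296 to 0.356, counting error only). Fitted with no filter on low counts, its log2 fold change was -2.95 (edgeR adjusted p = 0.0629), which did not pass the threshold. An annotated gene on the opposite strand shares 89 exonic bases with Bmp4, so some of these counts could be its own. Of 14 BMP ligand genes, only Bmp7 and Bmp2 passed the filter. Bmp2, the close relative of Bmp4, was at 1.79 and 3.13 CPM in the controls and at 1.49, 1.54 and 1.66 CPM with IGF-1 (log2 -0.65, SE 0.31, edgeR adjusted p = 0.418).

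The 5 tested genes of at least 10 CPM whose log2-CPM followed that of Bmp7 most closely over the 5 libraries, of 9778 compared, were Klhl2, Kremen1, Rcor3, Mgat3 and Ythdf2. After centring, their root mean square differences from Bmp7 were 0.011 to 0.024 on the log2 scale, and their log2 fold changes 0.28 to 0.34. Bmp7 was taken for this because it had the smallest p of the members. All are points of the same 5 libraries and share the high value of replicate 5.

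The receptor genes lay close to their controls. Bmpr1a, the type I receptor ALK3, was at 119.0 and 119.6 CPM in the controls and at 115.2, 114.5 and 119.2 CPM with IGF-1. The groups overlapped within a few CPM, and the log2 fold change was -0.037 (SE 0.06, edgeR adjusted p = 0.828). A gene annotated on the opposite strand shares 290 exonic bases with Bmpr1a. Bmpr2, the type II receptor that activates it, was at 98.0 and 97.3 CPM in the controls and at 93.8, 95.3 and 121.4 CPM with IGF-1. Replicates 3 and 4 lay just below both controls and replicate 5 well above them. The fitted change of Bmpr2 was 0.085 (SE 0.11, edgeR adjusted p = 0.772) with all libraries and turned to -0.047 (SE 0.05, edgeR adjusted p = 0.693) without replicate 5.

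Both inhibitory SMAD genes are themselves BMP targets and act as feedback: SMAD6 mainly on the BMP branch, SMAD7 on the BMP and TGF-beta branches. Smad7 was at 6.17 and 5.61 CPM in the controls and at 5.07, 5.66 and 8.12 CPM with IGF-1. Again replicate 5 alone was high. The log2 fold change was 0.099 (SE 0.22, edgeR adjusted p = 0.881) and turned to -0.13 (edgeR adjusted p = 0.767) without it. Smad6 had 6 and 12 counts in the controls and 6, 6 and 12 in the IGF-1 libraries. The groups overlapped fully, the estimate of -0.33 had an SE of 0.56, and without replicate 5 Smad6 fell below the filter.

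Levels of different genes were compared as CPM per kilobase of merged exons, with lengths from GENCODE M21 on GRCm38. The order of the mean over the 5 libraries was Id3 (42.7), Bmp7 (28.7), Bmpr1a (18.5), Id2 (13.3), Id1 (7.79), Bmpr2 (5.63), Smad7 (1.36), Smad6 (0.143), Bmp4 (0.122) and Id4 (0.110). Over libraries Id3 ranged from 34.6 to 48.3 and Bmp7 from 24.6 to 35.2 CPM per kilobase, so these neighbours overlapped, as did Id1 (5.44 to 8.76) and Bmpr2 (5.22 to 6.75). Smad6, Bmp4 and Id4 overlapped one another. Within each library Id3 exceeded Id2 and Id2 exceeded Id1. On the same scale, the bHLH genes were at 43.4 for Tcf3, 34.7 for Tcf12 and 8.67 for Tcf4, the E proteins that ID proteins bind, and at 324 for Olig1 and 106 for Olig2 CPM per kilobase.

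**Figure D3:**
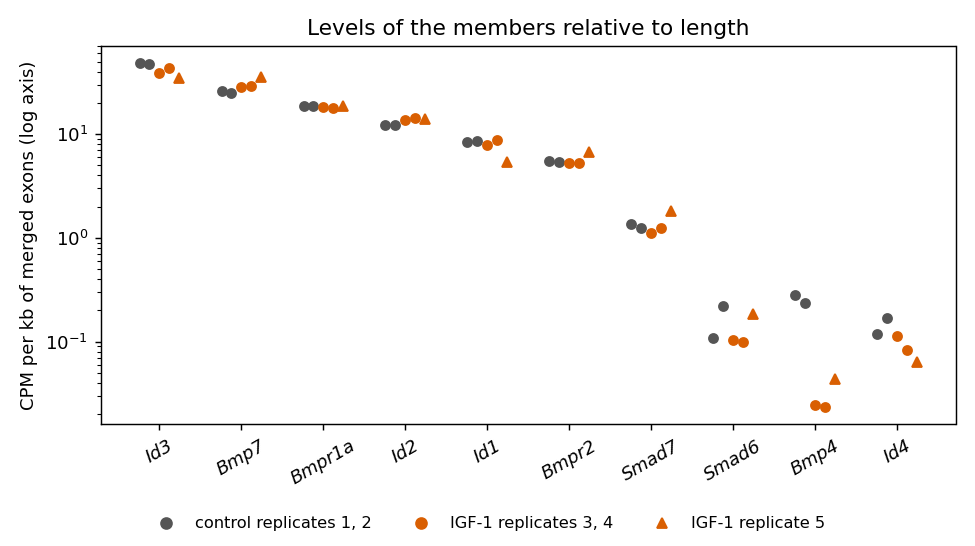
CPM per kilobase of merged exons (vertical log axis) of the 10 members, ordered by their mean, with 1 point per library. Id3, Bmp7 and Bmpr1a lead, and Smad6, Bmp4 and Id4 lie below 0.30 in every library.

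The rest of the pathway was described with lists of ligands, receptors, SMADs, antagonists, targets, bHLH partners and the TGF-beta and activin branch. Besides the members they hold 93 genes, of which 64 were tested. Of these 3 rose and 0 fell (edgeR adjusted p under 0.05), against 0.685% and 0.339% of all genes. By unadjusted p below the same threshold 14 were higher and 3 lower, against 7.10% and 5.57% of all genes. The median log2 fold change was 0.080, and 44 of the 64 estimates were above 0, as were 7687 of 15919 over all genes. Without replicate 5, 9 of 63 were called higher and 3 lower, against 5.49% and 3.65% of all genes. With all libraries the 3 edgeR calls were in the lists of bHLH partners and of the TGF-beta and activin branch, and 0 were in the BMP lists. At 0.685% and 0.339% of all genes called, that 0 does not set the BMP lists apart, and without replicate 5 they held calls too (below). DESeq2 with all libraries called Hes1, Skil, Pmepa1 and Smurf1, the last from the inhibitory SMAD and ubiquitin ligase list. That made 4 higher, against 1.39% of all genes, and 0 lower.

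**Figure D4:**
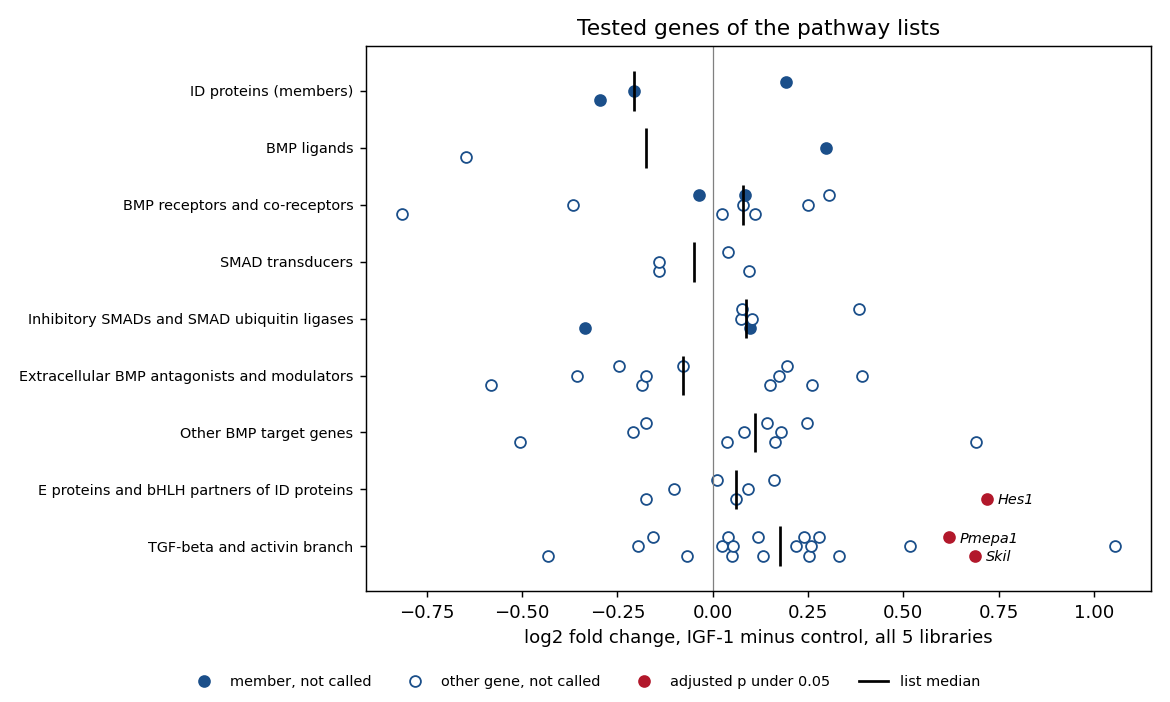
Log2 fold changes (horizontal axis, IGF-1 minus control, all 5 libraries) of the tested genes of each list, with a vertical tick at the list median, filled blue for members and red for genes past an adjusted p of 0.05. The 3 red points are Hes1, Skil and Pmepa1, and no BMP ligand, receptor, SMAD, antagonist or other BMP target gene is red. Of all tested genes, 0.685% were called higher and 0.339% lower.

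Among receptors and co-receptors edgeR called 0 of 9 tested genes, and 1 was higher and 1 lower unadjusted. DESeq2 called 0 of those to which it gave an adjusted p, which not all of the 9 had. Over all genes edgeR called 0.685% higher and 0.339% lower, and 7.10% were higher and 5.57% lower unadjusted. These shares apply to each list here. The median log2 fold change of the 9 was 0.080 with all libraries and turned to -0.047 without replicate 5. Without replicate 5, Rgma, a BMP co-receptor of the repulsive guidance family, was called lower (log2 -0.29, edgeR adjusted p = 0.0263). Of the 4 SMAD transducer genes 0 were called by either tool or unadjusted. Smad5, the most abundant, was at 0.040, and Smad1 at -0.14 with all libraries and called lower at -0.18 without replicate 5 (edgeR adjusted p = 0.017). Of the inhibitory SMAD and ubiquitin ligase genes 0 of 6 passed by edgeR, with 1 higher unadjusted and 1 by DESeq2, against 7.10% and 1.39% of all genes. The nearest was Smurf1, whose product marks SMAD1 and SMAD5 for degradation. It was at 89.7 and 84.7 CPM in the controls and at 109.1, 105.9 and 126.4 CPM with IGF-1. Smurf1 thus lay above the controls in every IGF-1 library, as did 16.2% of all tested genes. Its log2 fold change was 0.38 (SE 0.08, edgeR adjusted p = 0.0724; DESeq2 adjusted p = 0.0129), and it was called without replicate 5 at 0.30 (edgeR adjusted p = 1.48e-05). Its relative Smurf2 was at 0.077 (edgeR adjusted p = 0.702). Genes named for a call without replicate 5 were chosen after their values were seen, here and below.

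Extracellular antagonists and modulators gave 0 calls among 11 tested by edgeR, and 0 by edgeR without replicate 5. DESeq2 called 0 of those to which it gave an adjusted p, which not all of the 11 had. Unadjusted, 1 was higher and 1 lower, against 7.10% and 5.57% of all genes. The most abundant were Bmp1, a protease that frees BMPs by cleaving chordin (0.17, edgeR adjusted p = 0.399), and Twsg1, a BMP-binding modulator (0.15, edgeR adjusted p = 0.368). The antagonist gene Nog, with 5 to 7 counts per library, was below the filter. Other BMP target genes gave 0 calls among 10 by edgeR, also unadjusted and without replicate 5 (median 0.11 with all libraries). DESeq2 called 0 of those to which it gave an adjusted p, which not all of the 10 had. Hey1 was at 0.18 (edgeR adjusted p = 0.569) and Msx1 at 0.14 (edgeR adjusted p = 0.740).

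Of the bHLH genes that ID proteins can bind or act beside, 1 of 7 tested rose and 0 fell, against 0.685% and 0.339% of all genes. The 1 was Hes1, a repressor known as a Notch target. It was at 12.1 and 10.1 CPM in the controls and at 16.0, 19.3 and 19.5 CPM with IGF-1. The groups were well separated, with a log2 fold change of 0.72 (SE 0.14, edgeR adjusted p = 0.0442). This call was kept without IGF-1 replicate 5 (edgeR adjusted p = 2.77e-05) and lost with any other single library left out. It was also lost by limma-voom (adjusted p = 0.0603). Without IGF-1 replicates 3 and 4 the edgeR adjusted p of Hes1 was 0.0792 and 0.135. Calls over all genes fell there too, from 109 higher and 54 lower to 29 and 9, and to 35 and 18. They also fell with 1 control left out, where the log2 fold change of Hes1 was 0.86 without control replicate 1 and 0.59 without control replicate 2. The E protein genes were not called with all libraries: Tcf3 was at 0.093, Tcf12 at -0.10 and Tcf4 at -0.18, and Tcf4 was called lower without replicate 5 (log2 -0.17, edgeR adjusted p = 0.0019). Olig1 was at 0.060 and Olig2 at 0.16, neither of them called.

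In the TGF-beta and activin branch, which shares SMAD4 and SMAD7 with the BMP branch, 2 of 20 tested genes rose and 0 fell, against 0.685% and 0.339% of all genes. Of the 20 estimates 16 were above 0 (median 0.18), beside 7687 of 15919 over all genes. Skil, whose product SnoN is a SMAD corepressor, was at 42.6 and 50.4 CPM in the controls and at 74.8, 66.1 and 83.7 CPM with IGF-1. It rose by 0.69 on the log2 scale (SE 0.11, edgeR adjusted p = 0.0208). Pmepa1, a TGF-beta-induced gene whose product restrains receptor-activated SMADs, was at 25.0 and 26.9 CPM in the controls and at 38.9, 38.7 and 42.1 CPM with IGF-1. It rose by 0.62 (SE 0.09, edgeR adjusted p = 0.0124). Both were called without IGF-1 replicate 4 or 5. Neither was called without IGF-1 replicate 3 (edgeR adjusted p = 0.089 and 0.0642) or with 1 control left out, where calls over all genes fell as well. Without control replicates 1 and 2 the log2 fold change was 0.57 and 0.82 for Skil, and 0.57 and 0.67 for Pmepa1.

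Without replicate 5, 7 of 20 genes of that branch were called higher and 0 lower, against 5.49% and 3.65% of all genes. Besides Skil and Pmepa1 these included Smad2, a transducer of the TGF-beta branch (0.22), the corepressor gene Ski (0.19), the receptor gene Tgfbr1 (0.16) and Ltbp4, of the latent TGF-beta binding proteins (0.13).

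**Figure D5:**
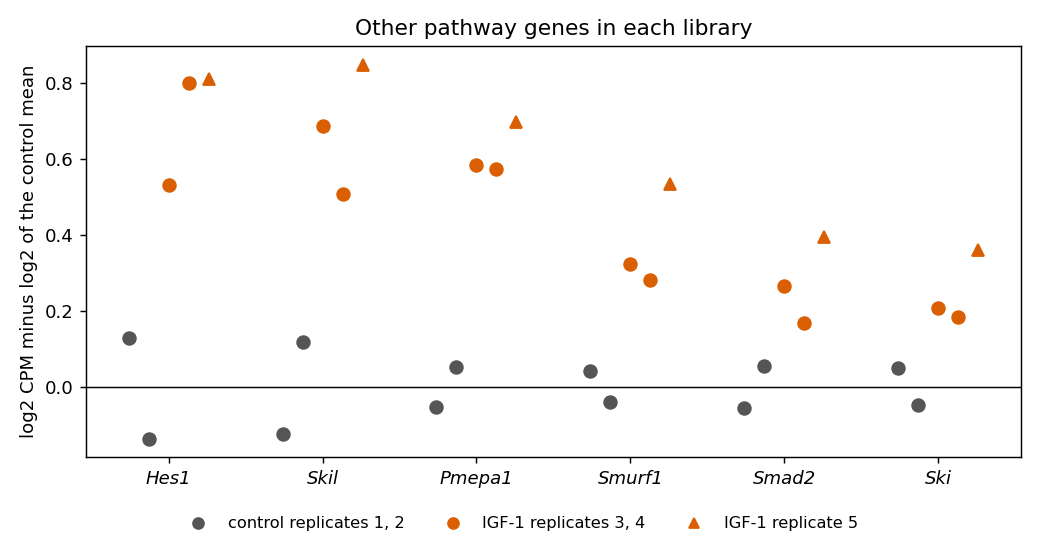
Log2 CPM of 6 pathway genes minus the log2 of their control mean (vertical axis) in each library. All 3 IGF-1 libraries lie above both controls for Hes1, Skil, Pmepa1, Smurf1, Smad2 and Ski, as they do for 16.2% of all tested genes. The 6 genes were chosen, after their values were seen, from those called higher with all libraries or without replicate 5.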

How the data were processed

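Polyadenylated RNA of 5 libraries was analysed. The authors deposited raw counts of reads per gene symbol, 1 table per library. The submitters' processing notes name GRCm39, STAR 2.7.9a, cutadapt 3.4, DESeq2 1.28.1 and featureCounts 2.0.1; annotation, strand setting and each tool's role are not given in the sources used here, so reads of overlapping genes could be shared.

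Groups came from the titles, whose numbers are not shared between groups. The fit used edgeR 4.0.16 in R 4.3.3, with filterByExpr (minimum count 10 and total 15), TMM and the two-sided quasi-likelihood F-test. The fit was tried on simulated data, in which all libraries had the same spread. No simulated library stood apart as IGF-1 replicate 5 did, so that case was not tested. Alternatives were no filter, RLE factors, no factors, DESeq2 1.42.0, limma-voom 3.58.1 with and without sample quality weights, and each library left out. SE is the log2 fold change divided by the root of F. Named genes were all members, the called genes of each list or otherwise its 2 most abundant, and further genes given for their values; some genes of the lists are not reported here. Members and lists were chosen with earlier results of these data known.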

Additional observations from a re-analysis of the deposited data

How the results depend on the processing

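The 0 calls among members with all libraries became 1 higher (Bmp7) and 1 lower (Id3) with no filter on low counts and with sample quality weights. Other pathway genes went from 3 higher and 0 lower to 7 and 1 in both. Calls over all genes rose there too, from 0.685% higher and 0.339% lower. They were 1.31% and 0.749% with no filter, and 3.02% and 2.08% with sample quality weights. With each library left out in turn, members called higher and lower ranged from 0 to 1 each, and pathway genes from 0 to 9 higher and 0 to 3 lower; the calls among members came without IGF-1 replicate 5. Bmpr2 and Smad7 turned to -0.011 and -0.073 with sample quality weights. Over the libraries left out, Bmpr2 ranged from -0.047 to 0.15, Smad7 from -0.13 to 0.23 and Smad6 from -0.76 to 0.26, the last above 0 without control replicate 2. Hes1 missed the threshold by limma-voom (adjusted p = 0.0603) and with total counts without factors. RLE factors and DESeq2 turned no member's direction and changed no call of a member. Over all genes, calls went from 109 higher and 54 lower to 29 and 9 without IGF-1 replicate 3. They were 35 and 18 without replicate 4, and 855 and 569 without replicate 5. The cause of these changes was not tested. Where 1 control was left out, the spread of the lone control was taken from the IGF-1 libraries. Few counts limit Id4, Bmp4 and Smad6. No paired analysis was possible because the replicate numbers are not shared between the groups.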

Other observations

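The following genes of the lists were chosen after their values were seen. Bmp15 and Kcp had their counts mainly in IGF-1 replicate 5. Bmp15, a ligand gene known from oocytes, had 0 and 0 counts in the controls and 1, 1 and 13 in IGF-1 replicates 3, 4 and 5, and Kcp, a BMP modulator gene, had 0, 1, 0, 0 and 9 counts in the 5 libraries in the same order. Neither passed the filter. Dact1 had 26 and 20 counts in the controls and 24, 35 and 67 in the IGF-1 libraries (log2 0.69, SE 0.41, edgeR adjusted p = 0.521). Inhbb, the gene of the activin beta B subunit, was at 1.56 and 2.01 CPM in the controls and at 3.25, 2.38 and 5.43 CPM with IGF-1 (log2 1.05, SE 0.36, edgeR adjusted p = 0.262). Chrdl1, a BMP antagonist gene, lay lower in all IGF-1 libraries, as did 16.9% of all tested genes. It was at 2.53, 2.22 and 2.50 CPM against 3.23 and 4.01 CPM in the controls, and was not called (log2 -0.58, SE 0.23, edgeR adjusted p = 0.328).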
